A study of Mus musculus with 6 samples.

Results

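The genes described here are imprinted genes of mouse that lie outside the Peg10 and Igf2 loci. A list of 50 such genes in 19 domains, from Dlk1 and Meg3 to Gnas and the Kcnq1 cluster, was matched to the array by gene symbol. For 43 of the 50 the array has a row that names that gene alone, and where a gene has several such rows the row with the highest mean was used. These 43 are among 22180 genes tested, and no filter on low levels was applied. Rtl1, Mirg and Snrpn are listed only on rows that name several genes, and no row was matched to Nespas, Slc22a3, Zrsr1 or Commd1, so these 7 were not analysed here. The measurements come from 6 single-colour arrays of total RNA from mouse embryonic stem cells (ESCs), in 2 groups. All 6 samples are Dgcr8-/- and so lack the RNA-binding partner that the nuclease Drosha needs to cut primary microRNA transcripts. A control hairpin was present in 3 samples, and the other 3 had sh-miR-302, a hairpin that supplies mimics of miR-302. The design text calls the samples of each group biologically independent. Nothing in the sources used here gives the number of clones, the sex or the passage of the cells, or a wild-type array. The comparison asks what miR-302 alone does to the levels of imprinted transcripts in cells without other canonical microRNAs.

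An imprinted gene is transcribed mainly from the copy inherited from one parent. In many domains the choice is fixed by DNA methylation laid down in egg or sperm at an imprinting control region. That methylation is kept through later divisions, in part by the zinc finger protein Zfp57, which binds a methylated hexamer in these regions. In ESCs the marks can be lost in culture, and many imprinted genes act in growth of the embryo and placenta. An array adds up the transcripts of both copies, so the values below are total levels and do not show which copy was read. Values are log2 expression as deposited, and a difference is the miR-302 mean minus the control mean, so that a difference of 1 is a doubling.

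The hairpin supplies a microRNA of the miR-302 family, whose members share the seed, bases 2 to 8, shown in capitals for a pair of them. The labels do not say which member was used. Sequences are those of RefSeq.
mmu-miR-302b-3p: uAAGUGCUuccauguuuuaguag
mmu-miR-302d-3p: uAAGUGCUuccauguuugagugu

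The promoters of Peg3, Mest, Plagl1 and Zim1 are shown, picked once the values of these genes were known. In several of these domains the imprint lies at or near the promoter of the gene expressed from the paternal copy. That reason applies to the paternally expressed Peg3, Mest and Plagl1. It does not apply to Zim1, a neighbour of Peg3 that is expressed from the maternal copy. Each window holds 250 bases before and 50 after a transcript start, read 5′ to 3′ along the gene, from RefSeq on GRCm38.p6, and the hexamer bound by Zfp57, TGCCGC or its reverse complement GCGGCA, is in capitals.
Peg3 promoter, chr7:6730370-6730669, minus strand: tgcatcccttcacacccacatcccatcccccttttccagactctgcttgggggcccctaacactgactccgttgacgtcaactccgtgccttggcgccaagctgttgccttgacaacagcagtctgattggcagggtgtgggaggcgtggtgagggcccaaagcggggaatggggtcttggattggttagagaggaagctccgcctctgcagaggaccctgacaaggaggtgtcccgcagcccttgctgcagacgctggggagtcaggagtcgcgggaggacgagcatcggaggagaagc
Mest promoter, chr6:30737800-30738099, plus strand: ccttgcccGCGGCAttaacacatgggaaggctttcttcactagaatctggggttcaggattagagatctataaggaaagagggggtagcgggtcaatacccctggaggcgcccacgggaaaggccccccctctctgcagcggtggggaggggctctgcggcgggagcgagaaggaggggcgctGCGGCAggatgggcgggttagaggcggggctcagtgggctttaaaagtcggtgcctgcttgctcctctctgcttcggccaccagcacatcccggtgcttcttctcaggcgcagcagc
Plagl1 promoter, chr10:13090582-13090881, plus strand: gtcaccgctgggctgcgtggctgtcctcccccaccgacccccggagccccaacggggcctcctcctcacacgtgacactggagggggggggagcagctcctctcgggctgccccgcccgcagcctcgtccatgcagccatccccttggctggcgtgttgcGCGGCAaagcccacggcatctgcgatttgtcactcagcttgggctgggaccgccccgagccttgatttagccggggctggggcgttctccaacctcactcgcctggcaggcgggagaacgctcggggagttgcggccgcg
Zim1 promoter, chr7:6696383-6696682, minus strand: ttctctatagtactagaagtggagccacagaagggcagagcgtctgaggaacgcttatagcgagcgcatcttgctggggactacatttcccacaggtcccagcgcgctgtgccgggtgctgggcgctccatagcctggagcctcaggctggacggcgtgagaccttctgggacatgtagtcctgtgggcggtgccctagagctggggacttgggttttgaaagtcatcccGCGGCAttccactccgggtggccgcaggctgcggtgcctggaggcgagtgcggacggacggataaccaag

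The Mest window holds the hexamer 2 times, those of Plagl1 and Zim1 hold it 1 time each, and that of Peg3 does not hold it. The choice favours windows with the hexamer: Phlda2, with 1 window, and Slc38a4, with 3, also varied widely between the miR-302 arrays, and none of their windows, which are not shown, holds it. The Mest window shown is 1 of 3 in the table. Over 53 windows of 38 listed genes the hexamer is in 12, or 22.6%, against 11.6% of 32851 windows of all genes. The windows of the listed genes hold a median of 13 CpG dinucleotides, against 7 over all windows, and the hexamer itself contains a CpG. A match is a description of the letters, not a site, and imprinting control regions outside these windows were not searched. The windows of Peg3 and Usp29, which start back to back, share 263 of their 300 bases.

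Over all genes tested, miR-302 samples had 1592 genes higher and 2051 lower at an adjusted p below 0.05 in limma. One array stands apart. miR-302 replicate 1 correlated with replicates 2 and 3 at r = 0.990 over all rows, whereas replicates 2 and 3 correlated at 0.995 and the control arrays at 0.995 to 0.996. Results that rest on that array are given with and without it. Without it 2484 genes were higher and 2911 lower. Of 8 ESC markers, none was called and all were measured, with summed log2 levels of 84.5 to 84.8 in control and 83.2 to 85.4 in miR-302 samples. Without miR-302 replicate 1, Sox2 and Zfp42 were called lower, 25% of the 8 against 13.1% of all genes. Their differences in that fit were −0.44 and −0.37 (limma, adjusted p = 0.00627 and 0.0119). Of 9 primitive endoderm markers 3 (Dab2, Foxa2 and Pdgfra) were higher and 1 (Gata4) lower. These are 33.3% against 7.18% of all genes and 11.1% against 9.25%. The summed log2 level of the 9 was 48.2 to 49.2 in control and 50.6 to 51.2 in miR-302 samples. The numbers were equal without miR-302 replicate 1, where 11.2% of all genes were higher and 13.1% lower. In that fit Gata6 was called higher in place of Foxa2 (limma, adjusted p = 0.0280 and 0.0511). Dgcr8 itself has no row of its own and was not checked.

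Of the 43 imprinted genes, Gnas, Ndn and Osbpl5 were higher with miR-302 and Copg2 and Tnfrsf22 were lower (limma, adjusted p under 0.05, adjusted over all genes). The 5 called genes lie in 4 domains, and their changes were between 1.39-fold and 1.88-fold. The other 38 were not called. As shares, 11.6% of the imprinted genes were called against 16.4% of all genes, 6.98% were higher against 7.18%, and 4.65% were lower against 9.25%, so the count of called members is near or below that of the background. The median difference was 0.13, against 0.01 over all genes, and 31 differences were positive and 12 negative. The groups did not overlap in 19 of the 43, or 44.2% against 35.8% of all genes. In 16 of the 43 every miR-302 array lay above every control array, a larger share than the 16.8% of all genes (3716 of 22180). In 3 of the 43 every one lay below, a smaller share than over all genes (4218 of 22180).

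**Figure D1:**
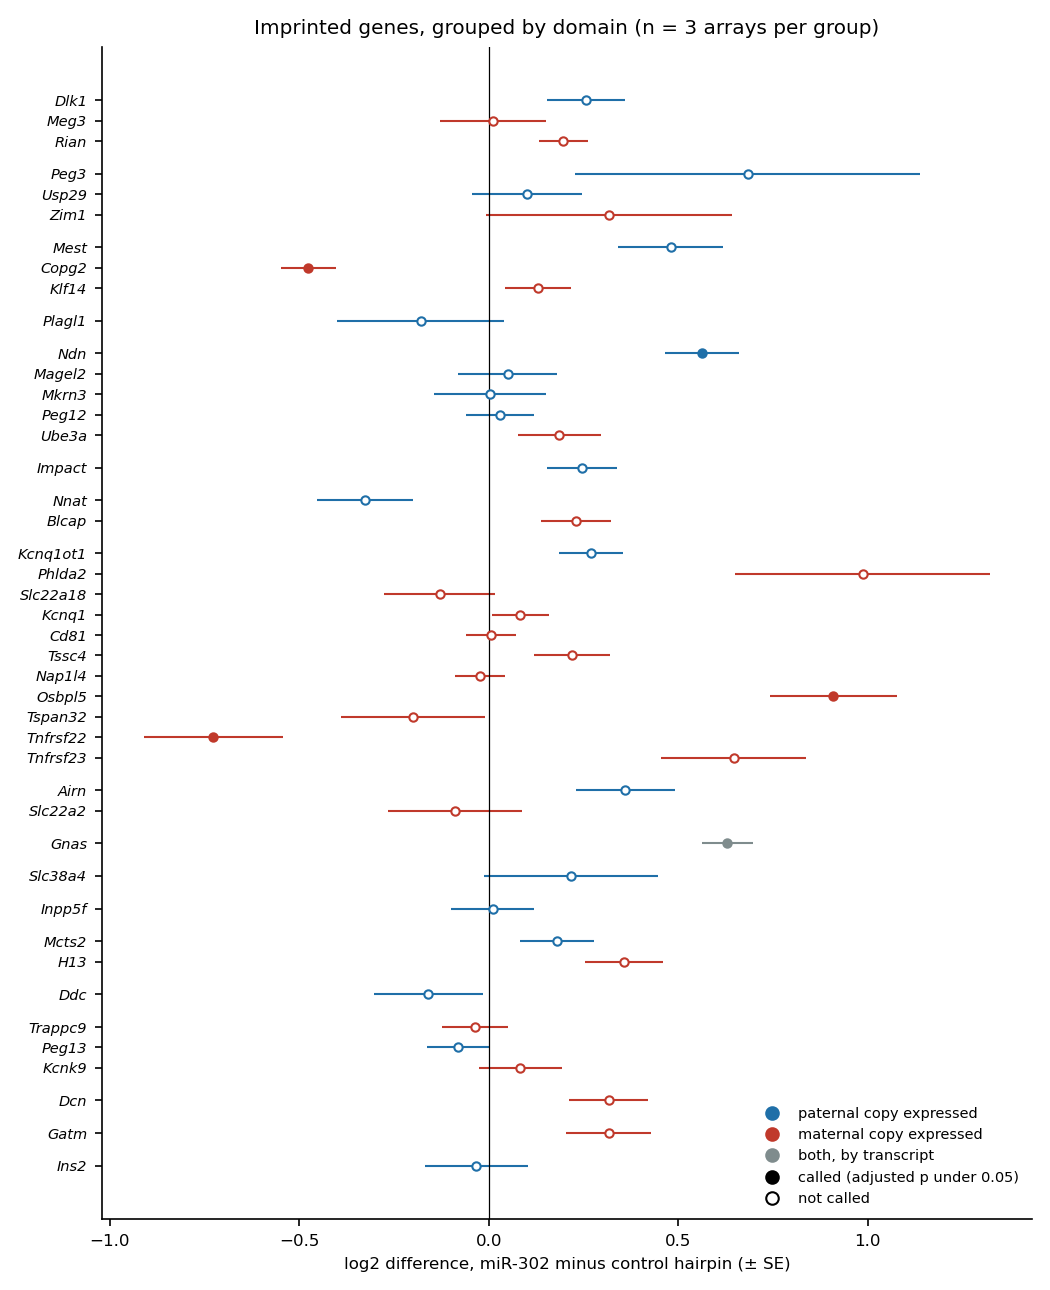
Difference in log2 expression between miR-302 and control hairpin samples for each of the 43 measured imprinted genes, one per line and grouped by domain, with bars of ± SE and colour for the parental copy that is expressed. Filled points are the 5 genes called at adjusted p under 0.05; most points lie to the right of 0, and Phlda2 and Peg3 have long bars.

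Gnas, whose transcripts include the alpha subunit of the stimulatory G protein, gave the lowest adjusted p of the set. It was 6.28, 6.34 and 6.27 on the control arrays and 6.94, 6.88 and 6.96 on the miR-302 arrays. The groups do not overlap, and the arrays of each group lie close together. The difference was 0.63 ± 0.07 (SE), or 1.55-fold (limma, adjusted p = 0.00237), and it stayed called in each of the 6 refits without 1 array. The locus makes several transcripts, some from the maternal and some from the paternal copy, and the annotation does not say which of them the row measures. A further row names Gnas together with its antisense RNA Gnasas1. It read from 7.30 to 7.57 in control and from 7.08 to 7.29 with miR-302, so it lay on the other side, and it was not assigned.

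In the Mest domain Copg2 was the called gene. Copg2, which encodes a subunit of the COPI vesicle coat and is expressed from the maternal copy, was 10.83, 10.78 and 10.74 in control and 10.35, 10.35 and 10.22 in miR-302 samples. Every miR-302 array lay below every control array. It fell by 0.48 on the log2 scale, with an SE of 0.07 (limma, adjusted p = 0.00743), and stayed called whichever of the 6 arrays was left out. Mest, a paternally expressed gene for a hydrolase-like protein, was 10.81, 10.73 and 10.83 in control and 10.95, 11.43 and 11.43 in miR-302 samples. Its groups do not overlap either, but replicate 1 lay much nearer to the controls than the others. The difference of Mest was 0.48 ± 0.14 (SE) and was not called (limma, adjusted p = 0.0614), and without miR-302 replicate 1 it was 0.64 and called (limma, adjusted p = 0.00183). The bodies of Mest and Copg2 overlap in part in RefSeq, and whether the probes lie in the shared stretch is not given in the sources used here. Klf14, a maternally expressed transcription factor gene, was 5.85 ± 0.14 (SD, n = 3) in control and 5.98 ± 0.02 with miR-302 and was not called.

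In the domain of Snrpn and Ube3a, 5 genes were measured and Ndn was the called one. Ndn encodes necdin, a protein of the MAGE family that is abundant in neurons. It was 6.74, 6.70 and 6.91 in control and 7.20, 7.38 and 7.46 in miR-302 samples, without overlap. It rose by 0.56 ± 0.10 (SE), or 1.48-fold (limma, adjusted p = 0.0117). Leaving out control hairpin replicate 1 gave an adjusted p of 0.0529 in limma, and leaving out replicate 2 gave 0.0512, so neither fit called it. Its paternally expressed neighbours Magel2, also of the MAGE family, the RING finger gene Mkrn3 and Peg12 had differences of 0.05, 0.0033 and 0.03, and each overlapped between the groups. Ube3a, a ubiquitin ligase gene imprinted in neurons, was 9.28, 9.27 and 9.36 in control and 9.26, 9.64 and 9.57 with miR-302, so that replicate 1 lay just below the lowest control and the others above the highest. Its difference was 0.19 (limma, adjusted p = 0.316), and 0.30 without replicate 1 (limma, adjusted p = 0.0256). Of 7 neural markers, none was higher and Sox1 and Tubb3 were lower, or 28.6% against 9.25% of all genes. The summed log2 level of the 7 was 49.1 to 49.6 in control and 47.0 to 47.7 in miR-302 samples. Without miR-302 replicate 1, 1 of the 7 was higher, or 14.3% against 11.2% of all genes, and 3 were lower, or 42.9% against 13.1%. Snrpn is named only on rows shared with Snurf, which were not assigned; 1 read from 10.63 to 10.71 in control and 10.95 to 11.23 with miR-302, and the other overlapped between the groups.

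The Kcnq1 domain holds 11 measured genes, of which Osbpl5 was higher and Tnfrsf22 lower. Here a long RNA made from the paternal copy, Kcnq1ot1, silences the protein-coding genes of that copy, several of them in placenta only. Kcnq1ot1 was 8.11, 8.14 and 8.07 in control and 8.23, 8.44 and 8.46 in miR-302 samples. The groups do not overlap, and the difference of 0.27 ± 0.08 (SE) was not called (limma, adjusted p = 0.0778). Without replicate 1 it was 0.34 and called (limma, adjusted p = 0.0126). The gene lies within Kcnq1 in RefSeq.

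Osbpl5, which encodes an oxysterol-binding protein that moves lipids between membranes, was 5.94, 5.36 and 5.69 in control and 6.50, 6.80 and 6.42 with miR-302. All miR-302 arrays lay above the controls, although the controls were spread widely. It rose by 0.91 ± 0.17 (SE), 1.88-fold (limma, adjusted p = 0.0141), and was not called in the fit that left out control hairpin replicate 3 (limma, adjusted p = 0.0534) or with replicate number as a block (limma, adjusted p = 0.0522). Phlda2, whose product restrains growth of the placenta, was 6.47, 6.52 and 6.38 in control and 6.59, 7.94 and 7.80 in miR-302 samples. Replicates 2 and 3 stood far above the controls and replicate 1 just above them. Its difference was 0.99 ± 0.34 (SE) and not called (limma, adjusted p = 0.0975). Without replicate 1 the difference was 1.41 and called (limma, adjusted p = 0.000295).

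The decoy receptor genes Tnfrsf22 and Tnfrsf23, which bind the death ligand TRAIL without passing on its signal, had differences of opposite sign. Tnfrsf22 was 8.39, 8.32 and 8.44 in control and 8.10, 7.47 and 7.40 with miR-302. It fell by 0.73 on the log2 scale, with an SE of 0.18 (limma, adjusted p = 0.0398). The call depends on every array but one: leaving out miR-302 replicate 1 gave −0.95 (limma, adjusted p = 0.000648), whereas leaving out each other array in turn gave adjusted p from 0.0991 to 0.123 and no call. Tnfrsf23 was 5.22, 4.72 and 5.00 in control and 5.35, 5.55 and 5.98 in miR-302 samples. The groups do not overlap, and the difference of 0.65 ± 0.19 (SE) was not called (limma, adjusted p = 0.0648), but was called without replicate 1 (limma, adjusted p = 0.0328).

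The other genes of the cluster were not called with all arrays. The tetraspanin gene Cd81 was 12.51 ± 0.04 (SD, n = 3) in both groups. The histone chaperone gene Nap1l4 was 11.28 ± 0.04 in control and 11.25 ± 0.03 with miR-302. The differences of Tssc4, of the potassium channel gene Kcnq1 and of the transporter gene Slc22a18 were 0.22, 0.08 and −0.13, none called. Tspan32, a second tetraspanin gene, was 6.49, 6.30 and 6.47 in control and 6.67, 6.01 and 5.98 with miR-302. Replicate 1 lay above all controls and the others below them. Its difference was −0.20 with all arrays (limma, adjusted p = 0.542). Without replicate 1 it was −0.425 and called lower (limma, adjusted p = 0.0160).

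**Figure D2:**
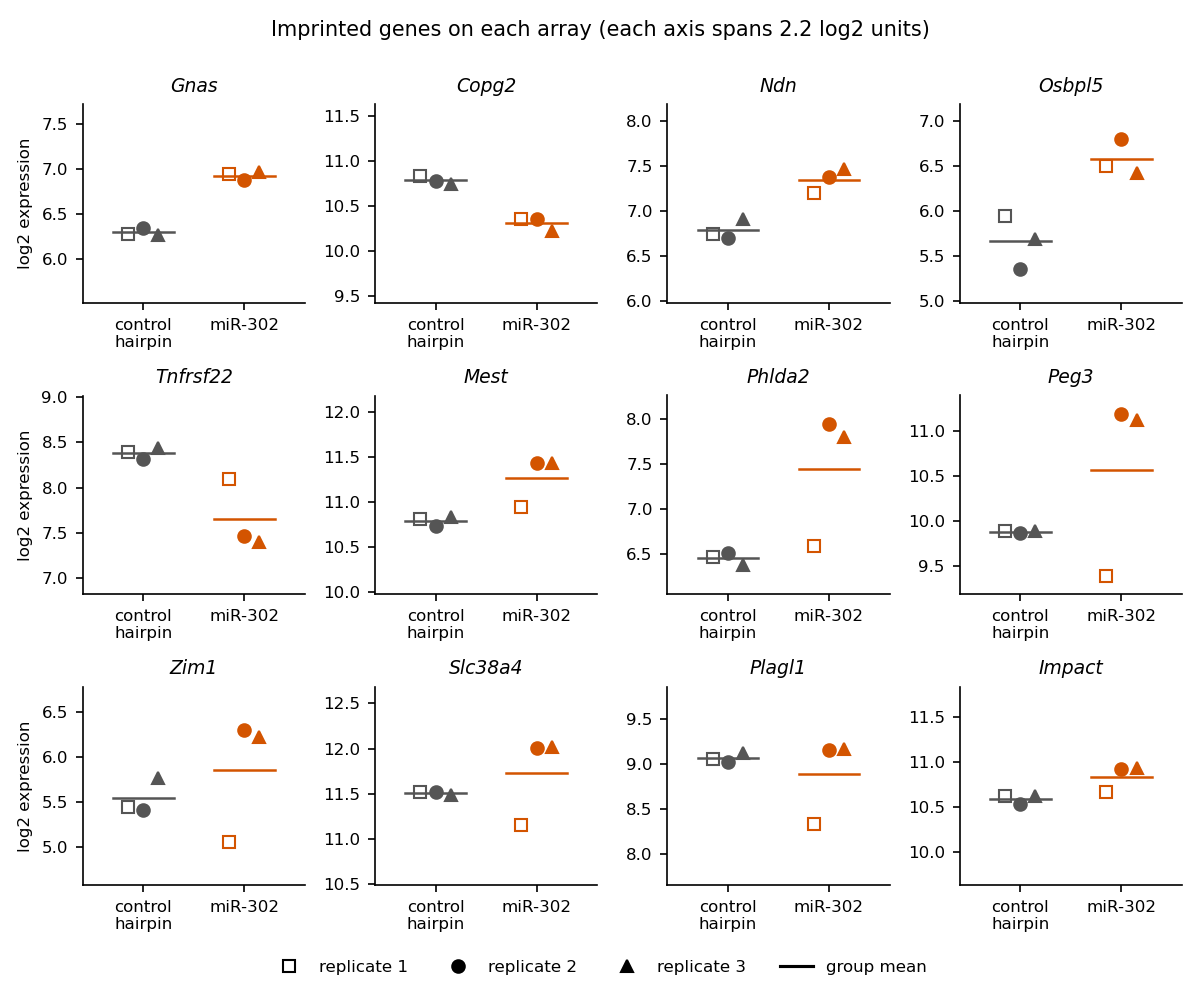
Log2 expression on each of the 6 arrays for 12 imprinted genes, with a symbol for each replicate number and a line at the group mean. The groups are tight and apart for Gnas and Copg2, whereas the open square of miR-302 replicate 1 lies below all controls for Peg3, Zim1, Slc38a4 and Plagl1.

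In the Peg3 domain the miR-302 arrays fell on both sides of the controls. Peg3, a paternally expressed gene for a large zinc finger protein, was 9.89, 9.87 and 9.89 in control samples and 9.39, 11.19 and 11.12 in miR-302 samples. Replicate 1 was 0.49 below the control mean and the mean of replicates 2 and 3 was 1.27 above it. With all arrays the difference of 0.68 ± 0.46 (SE) was not called (limma, adjusted p = 0.375). Without replicate 1 it was 1.27 and called (limma, adjusted p = 0.000195). Zim1, a zinc finger gene next to it that is expressed from the maternal copy, was 5.45, 5.41 and 5.77 in control and 5.06, 6.30 and 6.22 with miR-302. It had the same arrangement, with replicate 1 below all controls and replicates 2 and 3 above them. The difference was 0.32 ± 0.33 (SE; limma, adjusted p = 0.579), and 0.72 without replicate 1 (limma, adjusted p = 0.0112). Usp29, a ubiquitin protease gene that starts back to back with Peg3, was 4.28 ± 0.12 (SD, n = 3) in control and 4.38 ± 0.27 with miR-302.

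Slc38a4, a paternally expressed amino acid transporter gene of placenta and liver, was 11.52, 11.52 and 11.49 in control and 11.15, 12.01 and 12.02 in miR-302 samples. Replicate 1 again lay below every control and the others above. The difference was 0.22 ± 0.23 (SE; limma, adjusted p = 0.592), and 0.51 without replicate 1 (limma, adjusted p = 0.00294). Plagl1, a paternally expressed zinc finger transcription factor gene, was 9.06, 9.02 and 9.12 in control and 8.34, 9.15 and 9.17 with miR-302. Here replicate 1 alone moved far, to 0.73 below the control mean, and the difference turned from −0.18 with all arrays to 0.09 without it, called in neither fit.

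In all, 7 of the 43 genes, or 16.3%, had replicate 1 outside the controls on the other side from replicates 2 and 3, against 5.92% of all genes. This way of counting was chosen after the values of Peg3 were seen and is a description. In 5 of the 7 (Peg3, Zim1, Plagl1, Slc38a4 and Ube3a) replicate 1 was low and the others high, against 3.11% of all genes, and in Tspan32 and Ddc it was high and the others low, against 2.82%. Without replicate 1, 15 of the 43 were higher, or 34.9% against 11.2% of all genes, and 4 were lower, or 9.30% against 13.1%; in both directions together 24.3% of all genes were called in that fit. Beside the genes already named, Impact, H13, Gatm and Airn joined the higher genes and Ddc and Tspan32 the lower ones in that fit. In the same samples the summed log2 level of 9 trophoblast markers was 56.0 to 57.3 on the control arrays, 66.1 on miR-302 replicate 1, and 72.2 and 72.0 on replicates 2 and 3. Of the 9, 6 were called higher, or 66.7% against 7.18% of all genes, and without replicate 1 all 9 were, against 11.2%. The keratin genes Krt18 and Krt8 had the largest differences of the 9, at 4.03 and 3.31. Hand1, Gata3, Eomes and Cdx2 were called at 0.85 to 1.63, and Tfap2c, Elf5 and Tpbpa were not called with all arrays. Elf5 lay below all controls on replicate 1. The part of these 9 markers in the values of the placental genes Phlda2, Osbpl5, Slc38a4 and Peg3 was not tested. In a bulk sample, fewer cells of a type and less RNA per cell cannot be told apart.

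**Figure D3:**
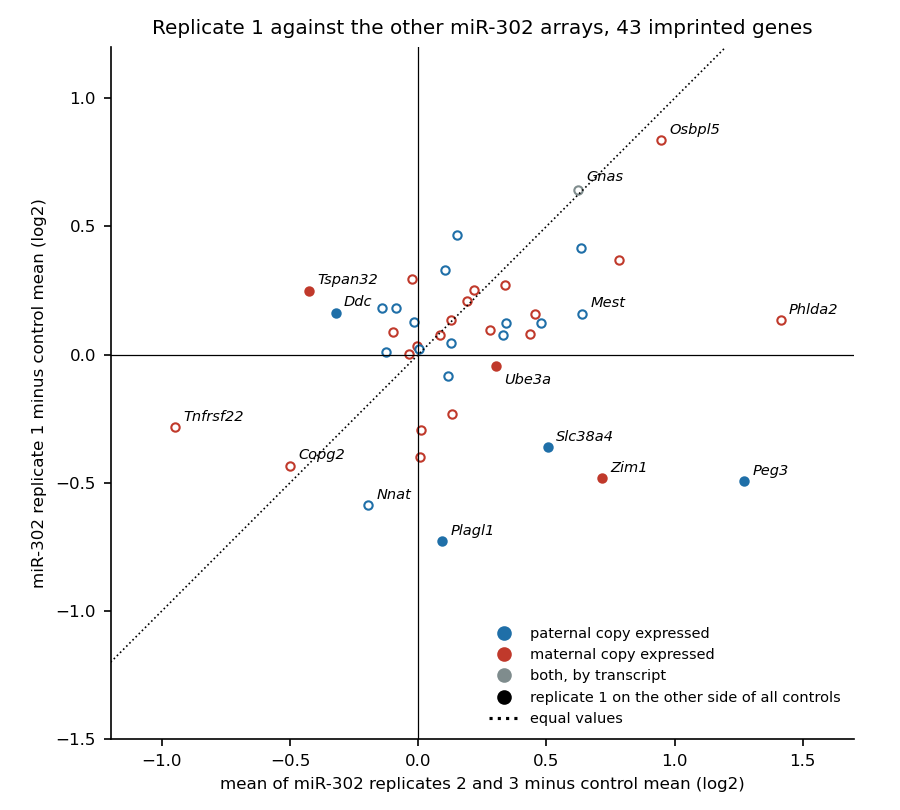
For each of 43 imprinted genes, miR-302 replicate 1 minus the control mean (vertical) against the mean of replicates 2 and 3 minus the control mean (horizontal), both on the log2 scale, with a dotted line of equal values. Gnas, Osbpl5 and Copg2 lie near the line, and the 7 filled points are genes with replicate 1 on the other side of all controls.

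Among domains without a called gene, several had groups that do not overlap. Impact, which encodes an inhibitor of the stress kinase Gcn2, was 10.62, 10.54 and 10.62 in control and 10.67, 10.92 and 10.93 with miR-302 (difference 0.25; limma, adjusted p = 0.123). H13, the gene for signal peptide peptidase, was 9.79, 9.86 and 9.72 against 9.95, 10.22 and 10.27 (difference 0.36; limma, adjusted p = 0.0601). In both the miR-302 arrays lay above the controls, with replicate 1 nearest to them. Mcts2, a paternally expressed gene that lies within H13, was 8.04 ± 0.10 (SD, n = 3) in control and 8.22 ± 0.13 with miR-302.

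Gatm, which encodes an enzyme of creatine synthesis and is imprinted in placenta, was 6.34, 6.37 and 6.28 in control and 6.41, 6.79 and 6.74 in miR-302 samples. Airn, the paternal RNA that silences Igf2r and its neighbours, was 4.58, 4.69 and 4.52 in control and 4.72, 5.21 and 4.94 with miR-302. The groups of Gatm and Airn do not overlap, and their differences of 0.32 and 0.36 were not called (limma, adjusted p = 0.108 and 0.115). Slc22a2, an organic cation transporter gene of the Airn domain, read from 3.20 to 3.79 over the 6 arrays. Detection calls were not used here, so levels this low cannot be told from background.

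Dcn, the gene for the matrix proteoglycan decorin, is imprinted in placenta and also marks fibroblasts. It was 4.09, 4.22 and 4.46 in control and 4.53, 4.58 and 4.61 with miR-302, a difference of 0.32 that was not called (limma, adjusted p = 0.0902) and was called without control hairpin replicate 3. All miR-302 arrays lay above the controls. Of 10 fibroblast markers Twist1 was higher and Thy1 lower, 10% each against 7.18% and 9.25% of all genes. The summed log2 level of the 10 was 54.0 to 54.4 in control and 54.9 to 56.3 with miR-302. Without miR-302 replicate 1, 1 was higher and 2 were lower, or 10% against 11.2% and 20% against 13.1%. Their part in the value of Dcn was not tested.

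Nnat, a paternally expressed gene for the membrane protein neuronatin, was 7.26, 7.42 and 7.42 in control and 6.78, 7.24 and 7.10 in miR-302 samples, which lay below all controls (difference −0.33; limma, adjusted p = 0.139). A second row for Nnat went the other way, by 0.52 (limma, adjusted p = 0.0596 over all rows), so its direction depends on the row. Blcap, in which Nnat lies, was 6.28 ± 0.15 (SD, n = 3) in control and 6.51 ± 0.04 with miR-302 and was not called.

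The remaining single genes overlapped between the groups. Ddc, which encodes aromatic amino acid decarboxylase, was 8.31, 8.42 and 8.28 in control and 8.50, 8.06 and 7.97 with miR-302. The lipid phosphatase gene Inpp5f was 6.01, 6.32 and 5.93 against 6.11, 6.08 and 6.10. The insulin gene Ins2 was 4.27, 4.67 and 4.49 against 4.66, 4.32 and 4.35. None of the 3 was called, and only in Ddc did replicates 2 and 3 lie together below every control. Trappc9, a vesicle tethering gene imprinted in brain, was 7.70, 7.57 and 7.60 in control and 7.71, 7.47 and 7.58 with miR-302. Peg13, an RNA gene within it, and the potassium channel gene Kcnk9 had differences of −0.08 and 0.08.

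The Dlk1 and Meg3 domain had no called gene among the 3 measured. Dlk1, a paternally expressed membrane protein related to the Notch ligands, was 5.56, 5.62 and 5.51 in control and 6.03, 5.72 and 5.71 with miR-302. Rian, a maternal RNA that hosts small nucleolar RNAs, was 10.60, 10.55 and 10.62 in control and 10.80, 10.80 and 10.76 in miR-302 samples. In both genes the miR-302 arrays lay above all controls. Their differences of 0.26 ± 0.10 and 0.20 ± 0.06 (SE) were not called (limma, adjusted p = 0.152 and 0.0873). Meg3, the maternal RNA whose loss is a frequent defect of cultured stem cells, was 5.20 ± 0.18 (SD, n = 3) and 5.21 ± 0.22 on the row that names it alone. A pair of other rows name Meg3 together with microRNA genes and were not assigned. They read from 7.63 to 7.76 in control and from 7.89 to 8.02 with miR-302, without overlap, so the row that names Meg3 alone may not stand for the whole transcript. A row that names Rian and a small nucleolar RNA gene read from 8.72 to 8.77 in control and from 8.47 to 8.61 with miR-302, the other side from the row of Rian alone.

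Small RNA genes lying between Dlk1 and Mirg gave further rows in this domain. Of 79 microRNA and small nucleolar RNA genes that RefSeq places there, 49 have a row of their own. Of 43 microRNA genes, limma called 2 higher and 5 lower, with a median difference of −0.06, and of 6 small nucleolar RNA genes none was called and all 6 differences were positive, between 0.02 and 0.17. The called share of the 43, 16.3%, is near the 16.4% of all genes. Without miR-302 replicate 1, 1 was higher, or 2.33% against 11.2% of all genes, and 4 were lower, or 9.30% against 13.1%. Mir453 was 8.11, 8.06 and 8.23 in control and 7.25, 7.32 and 7.42 in miR-302 samples, and it fell by 0.80 on the log2 scale, with an SE of 0.08 (limma, adjusted p = 0.00212). Mir409 and Mir541 fell by 0.65 and 0.49 (limma, adjusted p = 0.0294 and 0.0262), and leaving out 1 array at a time left each of them called in 2 of 6 fits and Mir453 in 6 of 6. Mir495 and Mir1193 were lower and Mir299a and Mir370 higher, each called in 1 or 2 of those fits. Mir299a read from 2.97 to 3.07 in control and from 3.29 to 3.38 with miR-302. As for Slc22a2, levels this low cannot be told from background. Mir370 and Mir495 were also low, with means of 4.78 and 4.57 over all arrays. Primary microRNA transcripts are not cut in Dgcr8-/- cells, so these rows are not a measure of mature microRNAs. The mature forms of Mir453, Mir409 and Mir541, which had the largest falls among the 5 called lower, carry these seeds, in capitals.
mmu-miR-453: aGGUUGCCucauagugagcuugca
mmu-miR-409-5p: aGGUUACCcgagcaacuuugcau
mmu-miR-409-3p: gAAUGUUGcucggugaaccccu
mmu-miR-541-5p: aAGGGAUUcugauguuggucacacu
mmu-miR-541-3p: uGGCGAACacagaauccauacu

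The seeds of these 5 mature forms differ from each other and from that of miR-302.

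Grouped by parental copy, the 17 measured genes that are expressed from the paternal copy as a whole had 1 called higher (Ndn) and 0 lower at a median difference of 0.18. The 23 maternally expressed genes had 1 higher (Osbpl5) and 2 lower (Copg2 and Tnfrsf22) at a median of 0.13. With all arrays, 7.18% of all genes were higher and 9.25% lower. Differences were positive in 13 of the 17 and in 16 of the 23, against 11287 of 22180 over all genes. Without replicate 1, 7 of the 17 and 7 of the 23 were higher, against 11.2% of all genes. In that fit 0 of the 17 and 3 of the 23 were lower, against 13.1% of all genes. Of 8 genes imprinted in placenta only, Osbpl5 was called with all arrays, and of 6 imprinted in brain only, none. The called share of all genes was 16.4%. Whether these groups differ was not tested, and the assignments come from general knowledge of mouse imprinting.

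Of 29 genes that set or keep imprints, all of them measured, limma called 6 higher and 2 lower, at a median difference of −0.01. That is 27.6% against 16.4% of all genes. Of the 29, 27 lie at or above the median level, against 11091 of 22180 over all genes. The 16.4% is therefore not a share among genes of like level. With genes below the median left out, 1815 of the genes kept were higher and 2479 lower. Of the 27 regulators kept, 6 were higher and 6 lower. The called shares of regulators and of all genes lay nearer to each other in that fit than without the filter. Dnmt3b, a DNA methyltransferase gene that sets new methylation, was 9.02, 9.08 and 9.15 in control and 10.52, 10.71 and 10.81 with miR-302, and it rose 3.02-fold (limma, adjusted p = 0.000349). Dppa3, whose product shields maternal methylation in the early embryo, was 4.88, 4.96 and 4.98 against 6.58, 5.99 and 6.17, a rise of 1.31 ± 0.15 (SE; limma, adjusted p = 0.00295). Both stood clear of the controls on every miR-302 array.

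Dnmt3l, the cofactor of methyltransferases in germ cells and ESCs, was 7.74, 7.68 and 7.51 in control and 10.10, 8.49 and 8.52 in miR-302 samples, with replicate 1 highest; it is named although not called, after its values were seen. Its difference of 1.39 ± 0.42 (SE) was not called (limma, adjusted p = 0.0671), and without replicate 1 it was 0.86 and called (limma, adjusted p = 0.00184). The chromatin genes Atrx and Daxx, whose products act together, rose by 0.56 ± 0.09 and 0.36 ± 0.08 (SE). Setdb1, a histone methyltransferase gene recruited through Trim28, and Mbd3 rose by 0.34 ± 0.06 and 0.31 ± 0.08. Lower were Arid4a, at −0.41 ± 0.08, and the maintenance methyltransferase gene Dnmt1, which went from 11.30, 11.31 and 11.32 to 11.09, 11.01 and 11.04.

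Zfp57 itself was 11.79 ± 0.06 (SD, n = 3) in control and 11.90 ± 0.11 with miR-302, and its partner Trim28 was 11.99 ± 0.02 and 12.05 ± 0.08. Neither was called. Dnmt3b, Dppa3 and Atrx were called whichever array was left out, whereas Setdb1, Daxx, Arid4a, Mbd3 and Dnmt1 were called in 1 or 2 of those 6 fits. Without miR-302 replicate 1, 7 of the regulators were higher and 8 lower, or 24.1% against 11.2% of all genes and 27.6% against 13.1%. Leaving out another array instead gave 3 to 5 higher and 0 or 1 lower.

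**Figure D4:**
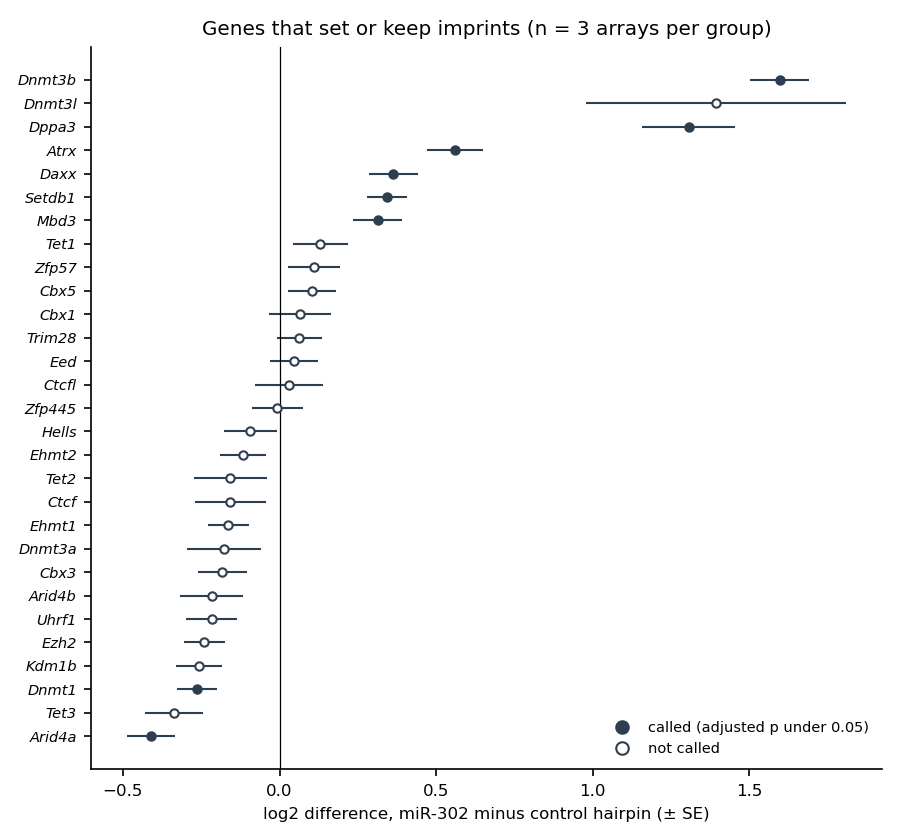
Difference in log2 expression between miR-302 and control hairpin samples for 29 genes that set or keep imprints, ordered by difference, with bars of ± SE. Dnmt3b, Dnmt3l and Dppa3 stand apart at the top, Dnmt3l with a long bar and no call, and the other genes lie between −0.41 and 0.56.

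For comparison, 14 measured imprinted genes of the Peg10 and Igf2 loci had 7 higher and 2 lower in the same fit. That is 64.3% called, against 16.4% of all genes, and their median difference was 0.46. None of these 14 had replicate 1 on the other side of the controls, against 5.92% of all genes. With 14 genes this is near that share. In Igf2, replicate 1 read 8.16 and replicates 2 and 3 read 10.48 and 10.56, all above the control arrays, whereas in Peg3 replicate 1 lay below them.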

How the data were processed

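RNA from 6 samples of Dgcr8-/- mouse ESCs was labelled with biotin and hybridised to single-colour arrays. The deposited table holds 33649 rows of log2 values in 6 columns, processed by the authors with RMA, per the submitters' processing notes. Base 2 is RMA's usual scale and was taken here, since no source used here names the base, the software version or the genome build. The values carry 2 decimals, and array medians were 5.60 to 5.62. RMA makes arrays alike in distribution, which hides any shift that all genes share.

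The platform annotation names 1 gene for 23521 rows, several for 1814 and none for 8314. Rows with 1 gene were kept, and the row with the highest mean stood for a gene, which gave 22180 genes. Groups came from the sample titles. The test for every gene was that of limma 3.58.1 under R 4.3.3 (functions lmFit and eBayes, two-sided, Benjamini-Hochberg over all genes, threshold 0.05), and every adjusted p is from that fit unless another is named. The fit was tested on simulated data. SE is limma's moderated standard error.

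Values are given on every array for called imprinted genes and for 1 imprinted gene of each other domain, the one with the highest mean level. Called genes of the other lists are given on every array, by their difference or a range, by direction, or only in a count. Per-array values of Mest, Phlda2, Zim1, Ube3a, Tspan32, Kcnq1ot1, Tnfrsf23, Dlk1, Dnmt3l and Igf2 were added after they were seen. The members and lists were chosen with earlier results of these data known. Lists got counts and medians only. Promoter and microRNA sequences are RefSeq's (GRCm38.p6). The alternatives tried were a fit blocked on replicate number, the removal of each array in turn, a level filter, a trend with robust prior, median centring, quantile normalization, the mean of all rows, each row on its own, and array weights.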

Additional observations from a re-analysis of the deposited data

How the results depend on the processing

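Gnas and Copg2 were called in every refit without 1 array and with replicate number as a block. Called imprinted genes numbered 3 higher and 2 lower, and 2 to 15 higher and 1 to 4 lower over the fits that leave out 1 array; the counts of all genes ranged from 685 to 2484 higher and 1043 to 2911 lower, and those of imprint regulators from 3 to 7 higher and 0 to 8 lower. The highest count of each came without miR-302 replicate 1. Higher imprinted genes numbered 6 of 26 at or above the median level, where 1815 of the genes kept were higher. They numbered 9 of 43 with an intensity trend and robust prior and 12 of 43 with array weights. Over all 22180 genes these fits gave 2019 and 2617 higher. After quantile normalization 1 imprinted gene was lower, against 1900 of all genes. Lower regulators numbered 6 with the level filter, 7 with trend and robust prior, 5 after centring and 6 with array weights. The lower genes in all numbered 2479, 2572, 2254 and 3004 in these fits. With the replicate block 2 imprinted genes were higher and 1 lower, 964 and 1329 of all genes, and 3 and 1 regulators; Tnfrsf22 had an adjusted p of 0.0613 in that limma fit. Same-numbered samples had deviations correlated at only 0.0192, 0.0167 and 0.00845, so no pairing by number was seen. With 3 arrays a group and miR-302 replicate 1 apart from the others, these values do not settle whether same-numbered samples were handled together. 14 members had the other sign in at least 1 setting and 29 in none, and all 14 were uncalled. Centring gave −0.0133 for Meg3, −0.02 for Mkrn3, −0.0167 for Cd81 and −0.0133 for Inpp5f. Quantile normalization gave −0.0247 for Meg3, −0.0153 for Mkrn3, −0.0122 for Inpp5f and 0.0142 for Trappc9. Array weights gave 0.0088 for Plagl1, −0.0703 for Mkrn3, −0.014 for Peg12 and −0.0011 for Cd81. Nnat was 0.0967 as the mean of its rows and 0.52 by its other row. Over the fits without 1 array the log2 differences ran, lowest to highest, as follows: Meg3 −0.09 to 0.13, Usp29 −0.0467 to 0.2183, Plagl1 −0.3217 to 0.0933, Magel2 −0.0483 to 0.1533, Mkrn3 −0.135 to 0.1, Peg12 −0.0183 to 0.0933, Slc22a18 −0.245 to 0.005, Cd81 −0.0067 to 0.0283, Slc22a2 −0.2833 to 0.0117, Inpp5f −0.0683 to 0.1267, Trappc9 −0.0983 to 0.0217, Kcnk9 −0.0233 to 0.1467 and Ins2 −0.1417 to 0.0633. Where a value moved, the cause was not tested. With 3 arrays a group the number of arrays limits the precision, and levels near background could not be marked.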
